A study of Bos taurus with 31 samples.

Results

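The genes described here encode the proteins of the cytosolic ribosome, measured by RNA sequencing in liver samples of 31 lactating German Holstein cows. They were taken from the count table by their symbols, which begin with RPL or RPS and a digit or read RPSA, RPLP0, RPLP1 or RPLP2, with the RPS6K kinases left out. This gave 84 of the 24616 genes in the table. The cows came from a 2 × 2 feeding trial and differed in ration alone, as far as the sample descriptions say. The first factor was a total mixed ration contaminated with glyphosate residues (GLY) or a control ration (CON), and the second was a high (HC) or low (LC) concentrate feed proportion (CFP). The groups were CONHC (n = 8), CONLC (n = 8), GLYHC (n = 8) and GLYLC (n = 7). Each liver sample was a puncture biopsy of 1 cow, so it holds every cell type of the tissue, and fewer cells of a type cannot be told apart from less RNA per cell. In the GLY rations the residue came in with the feed, as peas, wheat grain and straw from treated crops, and glyphosate was not given as a pure compound. No ages are given here.

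The cytosolic ribosome reads messenger RNA and joins amino acids into protein. Its small subunit (the RPS proteins and RPSA) decodes the message, its large subunit (the RPL proteins) forms the peptide bond, and the acidic stalk (RPLP0, RPLP1 and RPLP2) recruits the elongation factors. Most of these messages begin with a terminal oligopyrimidine tract (TOP), through which their translation is coupled to nutrients by the kinase complex mTORC1 and the RNA-binding protein LARP1. The liver makes most plasma proteins and holds many ribosomes, and its ribosome content is known to follow feed intake.

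Of the 84 genes, 41 encode core large subunit proteins, 31 core small subunit proteins and 3 the stalk. A further 8 are paralogs, near copies of a core gene that can replace it or serve other roles (RPL3L, RPL7L1, RPL10L, RPL22L1, RPL26L1, RPL36AL, RPS27L and RPS4Y1). The remaining gene, RPS19BP1, encodes a protein that binds RPS19 and is no ribosome subunit. At least 20 reads summed over all cows were found for 82 of the 84 genes, out of 15916 genes tested in all. RPL10L had 0 reads in every cow and RPL39, a small protein of the exit tunnel, had 4 reads in all, so neither was tested. The counts are of uniquely mapped reads, and these genes have many near-identical copies in mammalian genomes. A low count such as that of RPL39 or of RPS29 (4.78 CPM on average) is therefore uncertain as a level, and so is the split between a gene and its paralog. Levels are given in CPM, the count of a gene relative to the size of its library after scaling by the trimmed mean of M values (TMM). They were not divided by gene length, and levels are compared between cows and not between genes.

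Each library held between 11675775 and 36675542 reads assigned to genes. Markers of hepatocytes led by albumin summed to between 108480 and 221120 CPM per cow. Genes of the intestinal epithelium stood out in GLYLC cow 912, whose FABP2 level was 205.8 CPM against at most 0.163 CPM in each other group, and counts of ribosomal protein genes that it moves are given without it as well. The libraries of 1 group differed from each other by more than counting error in every pair.

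The 84 genes together took between 1.78% and 2.68% of the assigned reads of a cow. In CONHC cows they held a median of 2.18% of assigned reads (lowest 1.83%, highest 2.60%) and in CONLC cows 2.33% (2.098% to 2.68%). In GLYHC cows the median was 2.15% (1.78% to 2.48%) and in GLYLC cows 2.34% (1.93% to 2.47%). The medians of the LC groups lay above those of the HC groups, and the ranges of all 4 groups overlapped. The large subunit genes held 1.12% ± 0.126 (SD, n = 16) of reads in HC cows and 1.22% ± 0.102 (SD, n = 15) in LC cows. The small subunit genes held 0.895% ± 0.105 (SD, n = 16) and 0.954% ± 0.0849 (SD, n = 15), and the stalk genes 0.121% ± 0.0171 and 0.123% ± 0.0191. In each of these classes the HC mean lay below the LC mean, by less than 1 SD between cows. That SD describes single cows and not the error of a mean. These shares are descriptions and were not tested.

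**Figure D1:**
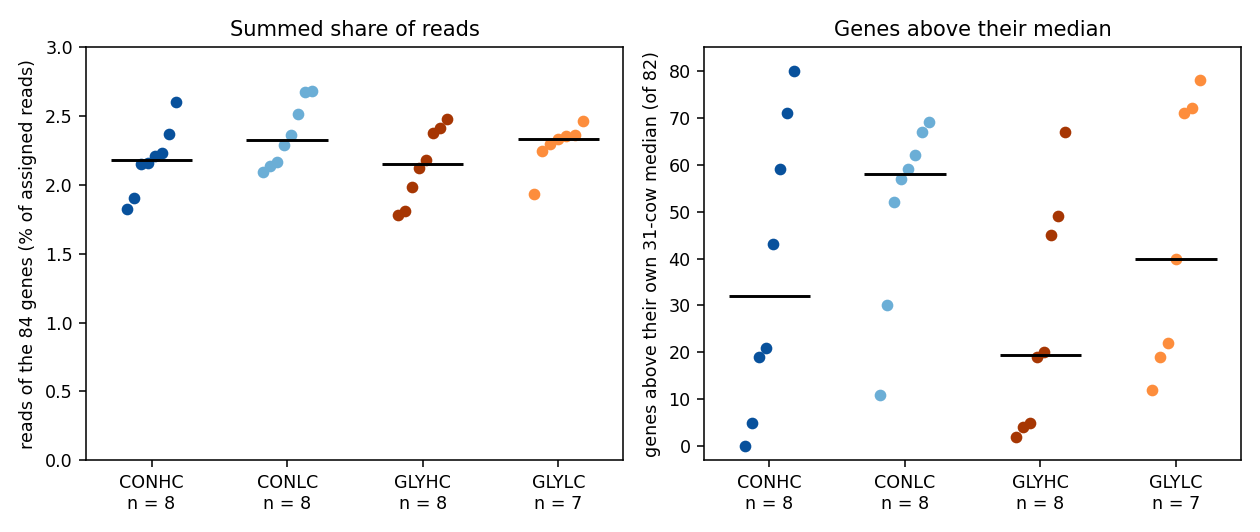
The left panel plots the reads of the 84 genes as a percentage of assigned reads and the right panel the number of the 82 tested genes that lay above their own median over 31 cows. Points are cows, lines are group medians, and the points of the 4 groups overlap in both panels, with numbers from 0 to 80 genes on the right.

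Within the groups the genes varied together from cow to cow. For each cow, the number of the 82 genes above their own median over the 31 cows was counted. It ran from 0 in CONHC cow 41 to 80 in CONHC cow 123, whereas the same share over all genes tested lay between 45.4% and 50.8% in every cow. TMM scales each library to the bulk of its genes, which keeps the share over all genes even between cows. In CONHC the lowest, median and highest numbers were 0, 32.0 and 80, and in CONLC 11, 58.0 and 69. In GLYHC they were 2, 19.5 and 67 and in GLYLC 12, 40.0 and 78. Cows with nearly all genes high and cows with nearly all genes low thus stood side by side in the same feeding group. CONHC cow 123 held the highest value of all 31 cows for 42 of 81 genes (RPL3L left out for its low counts), and CONHC cow 41 the lowest for 25. Because all genes of a cow come from 1 library, they are not independent measurements of that cow, and differences in library composition were not separated from differences in the tissue.

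**Figure D2:**
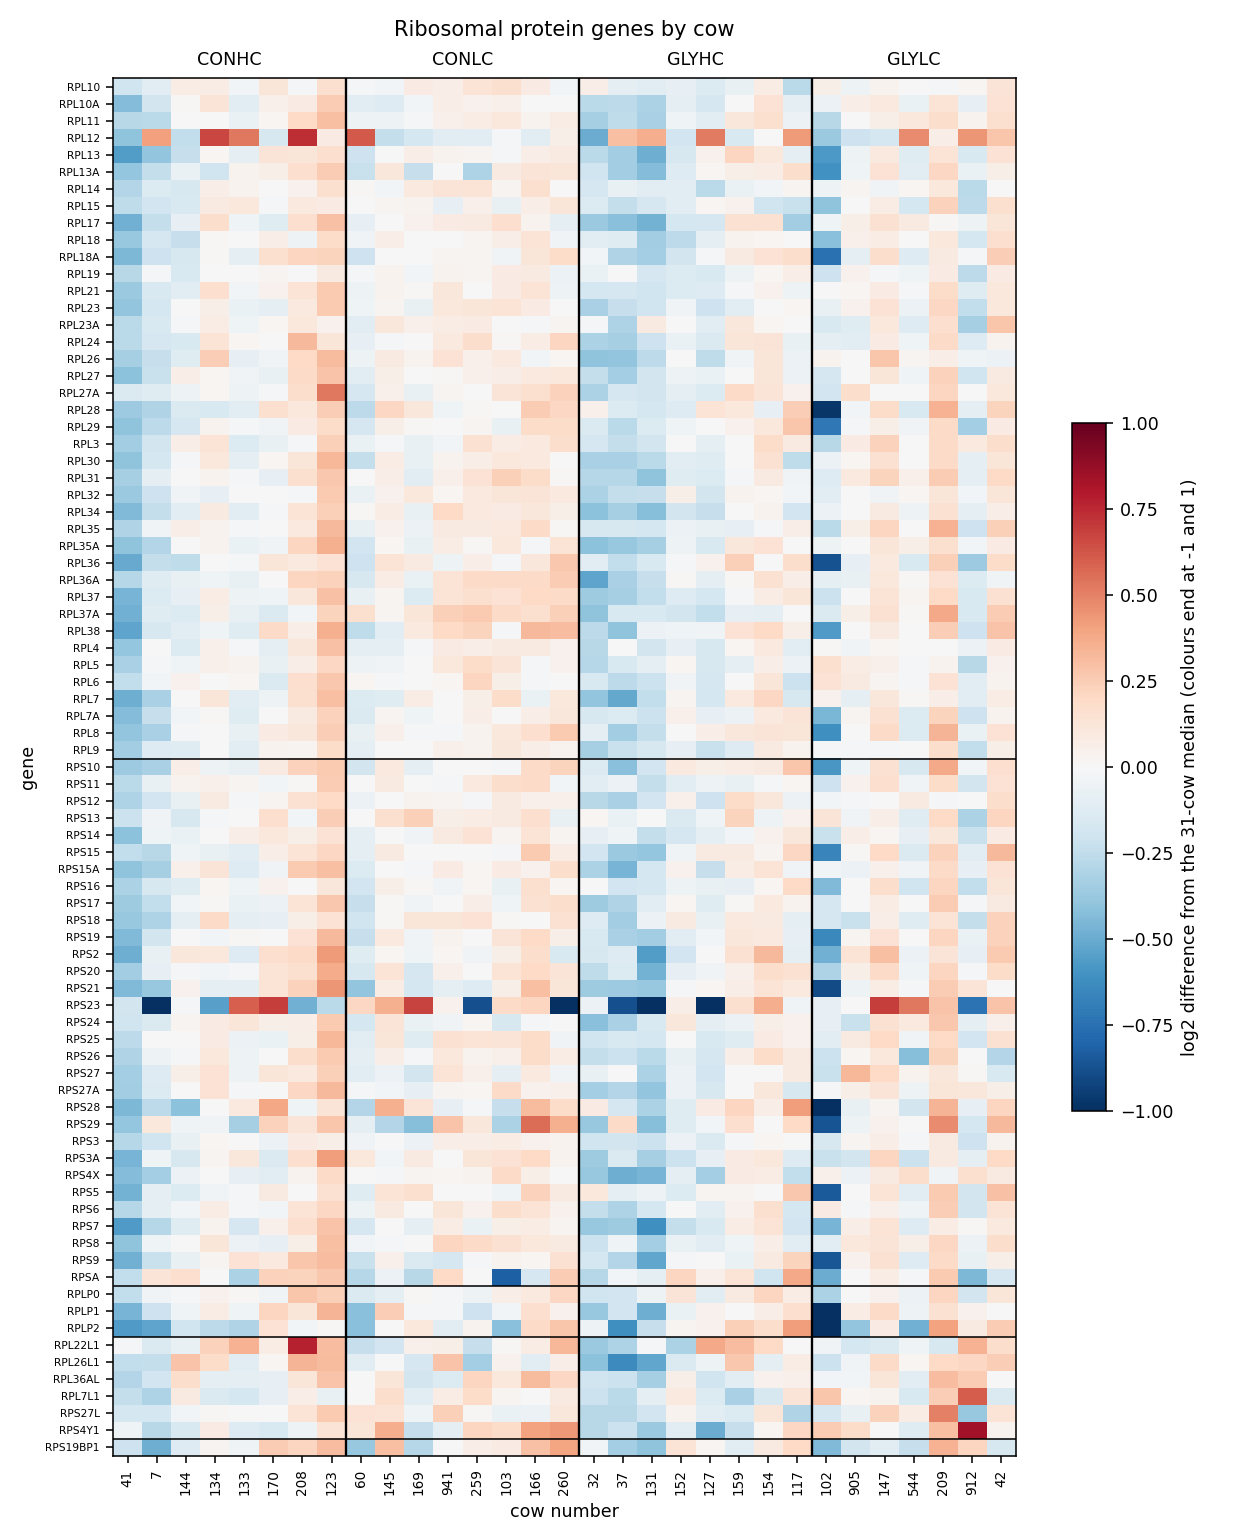
Each row is a gene and each column a cow, sorted within its group by the summed share of reads, and the colour is the log2 difference from the gene's median over 31 cows. Rows are ordered as large subunit, small subunit, stalk, paralogs and RPS19BP1, and RPL3L is left out. Whole columns are pale blue (cow 41) or pale red (cow 123), while RPS23 and RPL12 break the columns.

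The main question on feeding was whether hepatic expression differed between the HC and the LC ration. RPL37A and RPS4Y1 were lower in HC cows than in LC cows, and no ribosomal protein gene was higher. Both were called by edgeR's quasi-likelihood test, which here required an adjusted p below 0.1 (Benjamini-Hochberg, over all genes tested) together with a raw p below 0.05. Those 2 of 82 genes (2.44%, 2 in the lower direction) compare with 1.45% of all genes called in either direction and 0.773% called lower. Resting on 2 genes, 2.44% is close to the 1.45% of all genes called. Among the 74 core genes tested 1 was called (1.35%), and RPS4Y1 is a paralog. The HC against LC comparison used all 31 cows with the treatment as a covariate.

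RPL37A encodes a small zinc-binding protein of the large subunit. Its lowest, median and highest levels were 321, 418 and 521 CPM in CONHC and 456, 506 and 536 CPM in CONLC. They were 339, 402 and 447 CPM in GLYHC and 402, 465 and 582 CPM in GLYLC. In the CON groups 6 of 8 HC cows lay below every LC cow, and in the GLY groups 5 of 8 did, but the ranges overlapped in both. The log2 fold change of HC against LC was -0.25 (SE 0.058, edgeR adjusted p = 0.0451). It was -0.25 in the CON cows and -0.25 in the GLY cows taken alone (edgeR adjusted p = 0.587 and 0.221), so neither treatment passed by itself.

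RPS4Y1 is a paralog of the small subunit gene RPS4X. The human gene of this name lies on the Y chromosome. The gene so named in the count table had reads in every one of these cows, at 19.2 to 48.5 CPM. Cows carry no Y chromosome, so these reads cannot be taken as those of a Y-linked gene. Which RPS4 copy the name stands for was not tested. In CONHC the lowest, median and highest levels were 22.3, 25.4 and 29.7 CPM and in CONLC 23.1, 31.0 and 36.5 CPM. In GLYHC they were 19.2, 23.2 and 31.3 CPM and in GLYLC 24.8, 30.7 and 48.5 CPM. The HC and LC ranges overlapped under both treatments, and the highest level belonged to GLYLC cow 912. The log2 fold change was -0.33 (SE 0.083, edgeR adjusted p = 0.0639). RPS4Y1 was called without cow 912 as well, and was lost when GLYHC cow 32 was left out (edgeR adjusted p = 0.104).

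RPS4X itself had the next smallest p. Its lowest, median and highest levels were 145, 186 and 223 CPM in CONHC and 193, 199 and 223 CPM in CONLC. The GLYHC values were 140, 160 and 207 CPM and the GLYLC values 187, 207 and 220 CPM. HC cows thus reached further down than LC cows, with 10 of 16 below every LC cow, and the upper ends were shared. The log2 fold change of -0.20 (SE 0.062) did not pass (edgeR adjusted p = 0.120). Reads of RPS4X and RPS4Y1 may be split between the copies, so the pair cannot be taken as separate measurements with certainty.

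RPL7L1, a paralog of RPL7 with a role in ribosome assembly, came next. It ranged from 34.1 to 45.0 CPM (median 39.1) in CONHC and from 39.2 to 47.9 CPM (median 43.7) in CONLC. In GLYHC it ranged from 33.7 to 46.1 CPM (median 38.1) and in GLYLC from 37.96 to 64.2 CPM (median 43.3). The top value was that of GLYLC cow 912, and the next in that group was 51.1 CPM. The groups overlapped, and the log2 fold change of -0.21 (SE 0.064) did not pass (edgeR adjusted p = 0.121). The large subunit gene RPL34 had a log2 fold change of -0.17 (SE 0.058, edgeR adjusted p = 0.169).

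**Figure D3:**
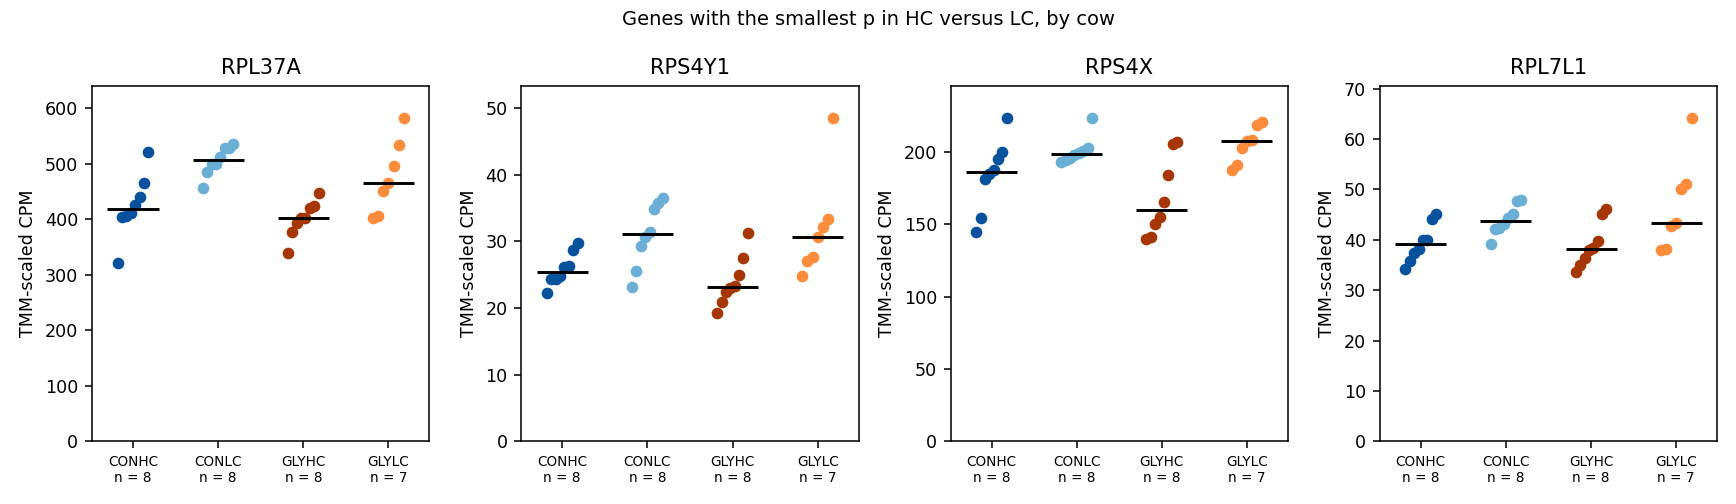
TMM-scaled CPM of RPL37A, RPS4Y1, RPS4X and RPL7L1 in each cow (points) with the group median (line), on axes that start at 0. In each panel the HC medians lie below the LC medians under both treatments, and the ranges of the groups overlap.

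The other genes lay on the same side with small values. In HC against LC, 76 of 82 genes (92.7%) had a log2 fold change below 0, compared with 54.0% of all genes tested. The median over the 82 genes was -0.07 (lowest -0.33, highest 0.15), compared with -0.01 over all genes. With each cow left out in turn, 67 to 78 of the 82 lay below 0 and the median ran from -0.094 to -0.054. The number was 67 without GLYLC cow 209, where 1 gene was higher at an unadjusted p under 0.05. At an unadjusted p under 0.05, 11 genes were lower and 0 higher, or 13.4% of the 82 against 7.8% of all genes lower. That count of 11 was 24 without CONHC cow 123, 20 without GLYHC cow 154 and 18 without cow 912, and with each cow left out in turn it was at least 8. By class, 39 of 40 large subunit genes lay below 0 with a median of -0.08, and 28 of 31 small subunit genes with a median of -0.06. The stalk genes had a median near 0, with RPLP0 at 0.02 (SE 0.058), RPLP1 at -0.0041 (SE 0.096) and RPLP2 at -0.03 (SE 0.12). The 2 members with the largest positive values were RPSA, the laminin receptor precursor of the small subunit, at 0.15 (SE 0.092, edgeR adjusted p = 0.476), and RPL12, a stalk base protein, at 0.14 (SE 0.12, edgeR adjusted p = 0.671). Since the genes vary together from cow to cow, the count of genes below 0 is not a count of independent observations.

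The effect of CFP was next taken within each treatment. In CONHC against CONLC no gene was called by edgeR among the 82, and 0.0% of all genes were called. DESeq2 called 27 of all genes when fitted on all cows, none of the 82 among them, and 81 when fitted on these 2 groups, RPL37A among them. The smallest adjusted p among the 82 was 0.587, and 2 genes, RPL37A and RPS4Y1, were lower at an unadjusted p under 0.05, with 0 higher, which is 2.44% of the 82 against 3.24% of all genes lower. The median was -0.05, and 69 of 82 genes (84.1%) lay below 0, compared with 53.6% of all genes. Among genes with a mean of at least 10 CPM, here called well measured, RPS4Y1 was lowest, at -0.26 (SE 0.12, edgeR adjusted p = 0.802), and RPL12 highest, at 0.24 (SE 0.17, edgeR adjusted p = 0.929).

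In GLYHC against GLYLC again none of the 82 genes was called by edgeR, against 0.201% of all genes, which is 32 genes and fell to 0 without cow 912. DESeq2 on all cows called 143 of all genes, RPS4Y1 among them. At an unadjusted p under 0.05, 15 genes were lower and 0 higher, or 18.3% of the 82 against 7.45% of all genes lower. These were 10 of 74 core genes (13.5%) and 5 of 7 paralogs (71.4%). The median was -0.11 (all genes -0.008), with 70 of 82 (85.4%) below 0, compared with 51.4% of all genes. The lowest value among well-measured genes was that of RPS4Y1 at -0.41 (SE 0.12, edgeR adjusted p = 0.155), and the next smallest p was that of RPS4X at -0.28 (SE 0.088, edgeR adjusted p = 0.191). The highest among well-measured genes was that of RPS28, a small protein at the messenger RNA exit, at 0.13 (SE 0.16, edgeR adjusted p = 0.8003). Without cow 912, 21 genes were lower at an unadjusted p under 0.05 and the median was -0.12, still with no call. RPS4Y1 was then at -0.29, and DESeq2 was not fitted without that cow.

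Whether the CFP effect differed between treatments was tested by the interaction of GLY with CFP. No gene of the 82 was called, none of all genes was either (0.0%), and the smallest adjusted p among the 82 was 0.999. RPL26L1, a paralog of the large subunit gene RPL26, was the only gene of the 82 with an unadjusted p under 0.05, at -0.37 (SE 0.17), against 4.23% of all genes. Without cow 912 no gene of the 82 had such a p, and DESeq2 on all cows gave 2. RPLP2 was highest among well-measured genes, at 0.30 (SE 0.24), and RPS23 lowest, at -0.29 (SE 0.37). For RPL37A the interaction term was 0.00034 (SE 0.12). The larger count within the GLY cows is therefore not shown to differ from that within the CON cows.

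**Figure D4:**
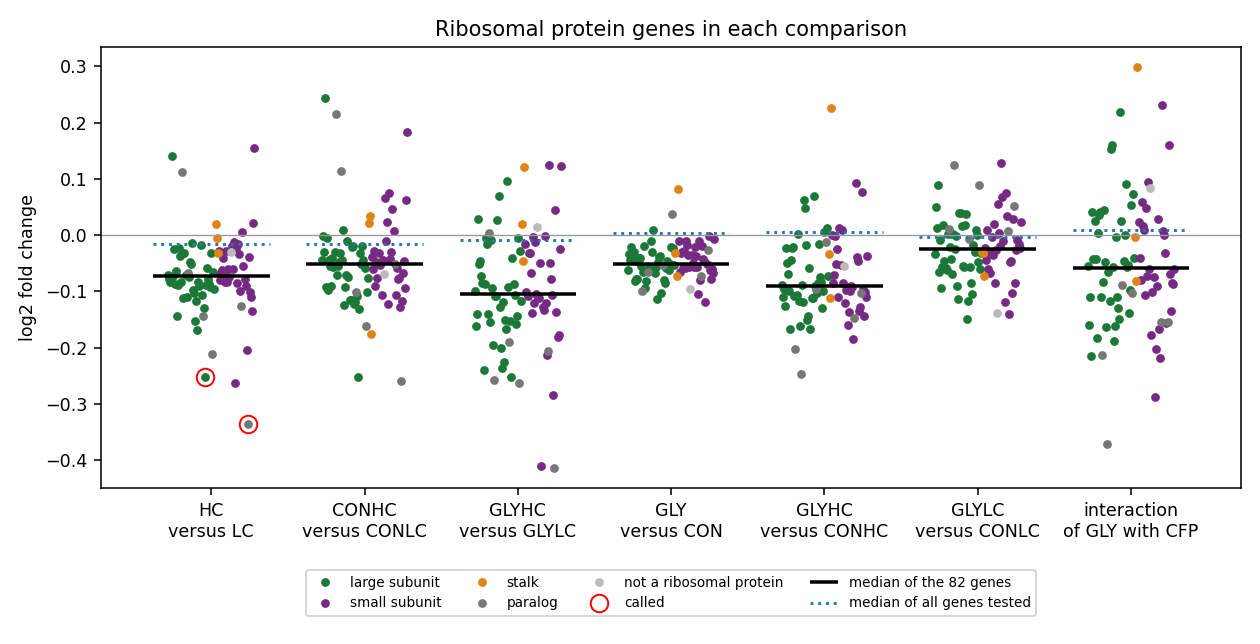
Each point is the log2 fold change of 1 gene in 1 comparison, coloured by class, with the median of the 82 genes (solid line) and of all genes tested (dotted line). Circled points are RPL37A and RPS4Y1, the only calls, and RPL3L is left out for its low counts. The solid lines lie below 0 throughout, from -0.11 to -0.03.

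The question on glyphosate was whether GLY cows differed from CON cows on the same CFP. Across both feeds, GLY versus CON gave no call among the 82 genes by edgeR, which called none of all genes (0.0%), and 0 of the 82 passed an unadjusted p under 0.05, against 3.93% of all genes. DESeq2 on all cows called 0 of the 82 and 1 of all genes, with 2 of the 82 lower at an unadjusted p under 0.05. Without CONHC cow 41, 4 of the 82 were lower by edgeR at that p. The median was -0.05, with 79 of 82 genes (96.3%) below 0, compared with 48.6% of all genes. The values were small, from -0.12 for RPS3A (SE 0.068), a small subunit protein, to 0.08 for RPLP2 (SE 0.12) among well-measured genes. Leaving out each cow in turn gave a median between -0.07 and -0.03 and no call. The number below 0 then ran from 63 to 80 of the 82, and was 63 without GLYLC cow 102. On the LC ration alone GLYLC against CONLC also gave no call among the 82, against 0.0628% of all genes, which is 10 genes and fell to 0 without cow 912, and 0 at an unadjusted p under 0.05, against 5.65% of all genes. The median was -0.03 with 55 of 82 (67.1%) below 0, compared with 50.6% of all genes, and -0.0054 with 43 of 82 below 0 when cow 912 was left out. Among well-measured genes RPL36, a large subunit protein, was lowest at -0.15 (SE 0.12) and RPS23 highest at 0.13 (SE 0.27).

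On the HC ration, GLYHC against CONHC gave no call among the 82 genes by edgeR, with 0.0% of all genes called. DESeq2 called 5 of all genes when fitted on these 2 groups and 0 when fitted on all cows. It called 0 of the 82 in both fits. The median was -0.09 (all genes 0.0052), and 69 of 82 lay below 0, compared with 48.3% of all genes. At an unadjusted p under 0.05, 3 genes were lower (RPS27A, which carries a ubiquitin fusion, RPL34 and RPL26L1) and 0 higher, or 3.66% of the 82 against 1.31% of all genes lower. By edgeR none of the 82 was lower at that p when only these groups were fitted, 1 with upper-quartile scaling and 2 without cow 912. With DESeq2 the number was 4 on all cows and 1 on only these groups. Of well-measured genes RPL22L1, the paralog of RPL22, was lowest at -0.20 (SE 0.13) and RPLP2 highest at 0.23 (SE 0.17). CONHC and CONLC are controls that several of these comparisons share, so their values are not independent of each other.

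The core genes with paired paralogs in the table were RPL3, RPL7, RPL10, RPL26, RPL36A, RPS4X and RPS27. RPL3, which lies next to the peptidyl transferase centre, ranged from 303 to 455 CPM over all cows and had a log2 fold change in HC against LC of -0.10 (SE 0.058). RPL3L, known as its muscle-type copy, was listed at 0.3 to 10.7 CPM, with a coefficient of variation (CV) between cows of a group of 110%, and no direction could be read from it. RPL36A and its copy RPL36AL, both large subunit proteins of the exit site, had values of -0.11 (SE 0.061) and -0.14 (SE 0.062). RPS27 had -0.03 (SE 0.060) and RPS27L, a copy known as a p53 target, -0.13 (SE 0.067). RPL26 had -0.11 (SE 0.063), RPL7 -0.09 (SE 0.070) and RPS19BP1 -0.03 (SE 0.089) beside RPS19 at -0.07 (SE 0.073). Apart from RPS4Y1 none of these passed.

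RPS6, the small subunit protein phosphorylated by S6 kinases downstream of mTORC1, lay between 246 and 361 CPM. Its medians were 300 CPM in CONHC, 319 CPM in CONLC, 276 CPM in GLYHC and 315 CPM in GLYLC, with overlapping ranges. The log2 fold change in HC against LC was -0.10 (SE 0.052, edgeR adjusted p = 0.393).

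The genes differed widely in how steady they were between cows of 1 group. The median CV over the 82 genes was 11.6%. RPL10, a large subunit protein at the joining face of the ribosome, was the steadiest core gene with a CV of 6.57%. It ranged from 548 to 703 CPM in CONHC, 618 to 705 CPM in CONLC, 522 to 664 CPM in GLYHC and 608 to 687 CPM in GLYLC.

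RPS23, which helps keep decoding accurate in the small subunit, was the most variable core gene with a CV of 36.0%. The lowest, median and highest levels were 72.1, 129 and 244 CPM in CONHC and 75.2, 173 and 241 CPM in CONLC. In GLYHC they were 71.3, 146 and 194 CPM and in GLYLC 90.2, 183 and 244 CPM. A level under 100 CPM was seen in 7 of 31 cows, of which 1 was in CONHC, 2 in CONLC, 3 in GLYHC and 1 in GLYLC. Low and high cows were therefore found in every group, and the HC against LC value of -0.26 (SE 0.18, edgeR adjusted p = 0.574) was within that spread. RPL12, singled out after its values were seen, was next with a CV of 24.8% and ranged from 60.8 to 144 CPM. It was often out of step with the rest. In cow 60, where 76 of 81 genes lay below the median of the other CONLC cows, RPL12 was 0.72 above it on the log2 scale. In cow 123, where 2 of 81 genes lay below the median of the other CONHC cows, RPL12 was the lowest at -0.33.

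**Figure D5:**
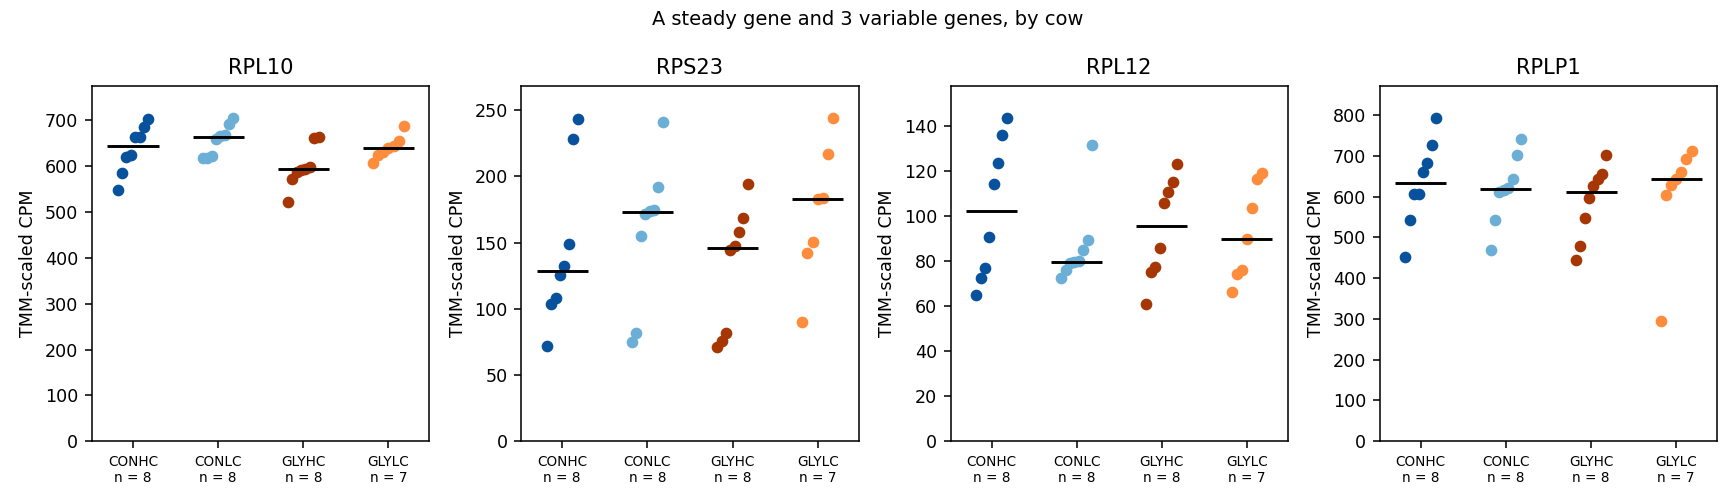
TMM-scaled CPM of RPL10, RPS23, RPL12 and RPLP1 per cow (points) with group medians (lines), on axes that start at 0. RPL10 stays within a narrow band, RPS23 and RPL12 spread over each group, and 1 GLYLC cow lies low for RPLP1 at 296 CPM.

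GLYLC cow 102 was low over most of the genes, 70 of 81 lying below the median of the other GLYLC cows, and more unevenly by gene than any other cow. RPLP1 and RPLP2, which form dimers on the stalk, were 296 and 48.3 CPM in this cow, where the other GLYLC cows had at least 605 and 77.8 CPM. RPS28 was 47.4 CPM, against 103 to 148 CPM in the other cows of the group. In all, 23 of 81 genes had their lowest value of the 31 cows in cow 102. On the log2 scale 9 genes lay more than 0.8 below the median of the other GLYLC cows, and RPL7L1 and RPL5 lay 0.25 and 0.13 above it. The spread between the 10th and the 90th percentile of these differences was 0.90 in cow 102 and at most 0.42 in any other cow. This cow was singled out after its values were seen. Its library held 20115399 assigned reads, within the range of the others. Without it RPL37A and RPS4Y1 were called in HC against LC all the same.

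Genes around the ribosome were read from lists chosen with earlier results of these data known. In HC against LC, 1 of 42 ribosome biogenesis genes was called, GAR1, a small nucleolar RNA-binding protein of the pseudouridine machinery, at -0.38 (SE 0.11, edgeR adjusted p = 0.0943). This is 2.38% of the list, close to the 1.45% of all genes called. Its median levels were 11.6 CPM in CONHC, 14.1 CPM in CONLC, 11.1 CPM in GLYHC and 14.1 CPM in GLYLC. At an unadjusted p under 0.05, 7 of the 42 (16.7%) were lower and 1 higher, beside 7.8% of all genes lower, with a median of -0.10. The summed level of this list was highest in GLYLC cow 912, at 1123 CPM, and at most 867 CPM in the other groups. Counts for this list were not taken without that cow. None of 7 elongation factors, 24 initiation factors, 11 other TOP messages or 21 genes of mTORC1 and TOP control was called. Their medians were -0.03, -0.06, -0.0068 and 0.03. The elongation factor nearest to a call was EEF1B2, a nucleotide exchange factor, at -0.17 (SE 0.053, edgeR adjusted p = 0.124). In the other comparisons no gene of these lists was called.

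Other groups of housekeeping genes are given beside the ribosomal protein genes. In HC against LC, the median over 78 mitochondrial ribosomal protein genes was -0.07 and 70 lay below 0. Over 85 genes of the respiratory chain and ATP synthase it was -0.07, with 68 below 0, and neither of these groups held a call. Over 38 proteasome genes it was -0.16, with 33 below 0 and 5 called, all lower. Over all genes 54.0% lay below 0 and 1.45% were called. In GLY versus CON the medians were -0.02, -0.01 and 0.0019, against -0.05 for the ribosomal protein genes. No difference between these groups of genes was tested.

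Some markers of other cell types were called in HC against LC in the same samples. Of 9 macrophage markers CD68 was called higher in HC (0.61, SE 0.17, edgeR adjusted p = 0.0950), with 5 higher and 0 lower at an unadjusted p under 0.05. Their summed level ranged over 447 to 1293 CPM in CONHC, 530 to 1118 CPM in CONLC, 513 to 1379 CPM in GLYHC and 527 to 1093 CPM in GLYLC. Of 7 stellate cell and fibroblast markers DCN was called lower (-0.50, SE 0.10, edgeR adjusted p = 0.0275), with 6 lower and 0 higher at an unadjusted p under 0.05. Their summed level ranged over 183 to 306 CPM in CONHC, 159 to 2255 CPM in CONLC, 130 to 213 CPM in GLYHC and 208 to 382 CPM in GLYLC, the top value being CONLC cow 103. No marker of hepatocytes (10 tested), leukocytes (11), endothelium (7), bile duct (4) or red blood cells (3) was called, and HBA was at 0 in every cow of both CON groups. Of 7 intestinal markers 4 were called lower in HC, FABP2, MUC13, OLFM4 and BCO1, with the highest summed level in cow 912 at 606 CPM and at most 395 CPM in the other groups. Of 5 epidermis markers KRT1 and KRT14 were called higher, with a summed level of up to 9.48 CPM in GLYHC and at most 1.54 CPM in the other groups, and LOR at 0 in all cows outside GLYHC. RPL37A and RPS4Y1 were called without cow 912 and without cow 103. The part of these cell types in the lower RPL37A and RPS4Y1 was not tested, and leaving out single cows does not test it.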

How the data were processed

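RNA was sequenced from 1 liver biopsy of each of 31 cows, with a stranded poly(A) library kit. Per the labels and the study's methods, the authors trimmed reads (Trim Galore), aligned them to UMD3.1 with HISAT2 2.1.0 and deposited raw read counts per gene of uniquely mapped reads made with HTSeq 0.8.0. Its strand setting is not given in the sources used here, and the share of reads from overlapping antisense genes was not tested. A table normalised by the authors (DESeq2 1.20.0) was not used.

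Genes with at least 20 reads over all cows were fitted with edgeR 4.0.16 (R 4.3.3, TMM, quasi-likelihood). A model of 4 groups gave the pairwise comparisons and the interaction, and additive models gave HC versus LC and GLY versus CON. A gene was called where the raw p was below 0.05 and the p adjusted by Benjamini-Hochberg over the 15916 genes tested was below 0.1. SE was taken from the log2 fold change and the F statistic. DESeq2 1.42.0 was an alternative, with other scalings, filters and cows left out. The procedure was tested on simulated data. Libraries held 11675775 to 36675542 assigned reads, and p-values weigh a difference between groups against the spread between cows.

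The members and lists were chosen with earlier results of these data known. Genes were named if called, if highest or lowest in a comparison at a mean of at least 10 CPM, if paired with a paralog, if steadiest or most variable, or if RPLP0, RPLP1, RPLP2, RPSA or RPS6. Ranking per coding length was left out because no gene lengths of the build were used here, and coordinates and sequences were left out likewise.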

Additional observations from a re-analysis of the deposited data

Results flagged for a closer look

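Within each group of 7 or 8 cows, the highest and lowest values of the named genes and of the summed share of reads were compared with the nearest other value. In 11 of 112 such groups the gap exceeded the 95% limit of Dixon's test. Its nominal rate of about 1 in 20 holds for independent values not picked beforehand. Some of these genes were named for extreme or variable values, and they vary together, so the 2 rates cannot be compared directly. GLYLC cow 102 was low in the share of reads taken by the 84 genes (1.93%, next 2.25%), in RPLP1 (296 CPM, next 605 CPM) and in RPS19 (124 CPM, next 185 CPM). RPL3L, with few reads, was high in CONHC cow 123 (3.71 CPM), CONLC cow 166 (10.7 CPM) and GLYHC cow 127 (6.52 CPM). RPL12 was high in CONLC cow 60 (132 CPM, next 89.5 CPM) and RPL22L1 in CONHC cow 208 (24.2 CPM, next 18.1 CPM). RPL26 was high in GLYLC cow 147 (318 CPM) and RPS4X in CONLC cow 103 (223 CPM). RPS4Y1 was high in GLYLC cow 912 (48.5 CPM, next 33.3 CPM), the cow in which intestinal genes stood apart.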

How the results depend on the processing

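In HC versus LC, where 2 of the 82 genes were called, DESeq2 on all cows called 5 (RPL34, RPL37A, RPL7L1, RPS4X and RPS4Y1), and an adjusted p under 0.05 left 1, RPL37A. Leaving out each cow in turn, chosen after seeing the data and run for HC versus LC and GLY versus CON, gave 1 to 3 calls in HC versus LC and 0 in GLY versus CON. RPL37A was called in 31 of 31 such fits, and RPS4Y1 in 30 (lost without GLYHC cow 32). DESeq2 called 1 gene in CONHC versus CONLC on only these groups (RPL37A) and 1 in GLYHC versus GLYLC on all cows (RPS4Y1), where edgeR called 0. The cause was not tested. Other scalings, filters, the robust fit and fits without cow 912 gave the same calls, and the median of the 82 genes stayed below 0 in every fit. Without the 10 genes with the most reads in the denominator, the median share of the 84 genes was 2.98% in CONHC, 3.12% in CONLC, 2.88% in GLYHC and 3.24% in GLYLC, as fewer reads were counted in the total. Values that did not pass changed sign in HC versus LC: RPL3L was 0.49 with DESeq2, RPLP1 0.00361 and RPS28 -0.00182 without cow 912. With each cow left out in turn RPL36 ran from -0.067 to 0.013, RPL3L from -0.52 to 0.49, RPLP1 from -0.057 to 0.023, RPLP2 from -0.095 to 0.010, RPS19BP1 from -0.056 to 0.00936 and RPS28 from -0.060 to 0.041. No paired analysis was possible because the numbers in the labels are those of the animals and no animal was in more than 1 group. Over all genes, edgeR called 231 in HC versus LC, 55 at an adjusted p under 0.05, 134 with genes of at least 1 read, 136 without cow 912 and 83 (without GLYHC cow 32) to 404 (without CONLC cow 169) with each cow left out, and DESeq2 434. In GLYHC versus GLYLC the 32 calls became 0 to 143 and in GLYLC versus CONLC the 10 became 0 to 10. Depth limits RPL3L, RPL39 and RPS29.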
